A study of Homo sapiens with 6 samples.

Results

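H3K9me3 peaks were described at 5 centromeric windows of the human genome (build hg38). The windows are chromosome 5 from 45.6 to 50.5 Mb, chromosome 7 from 57.8 to 61 Mb, chromosome 10 from 39.0 to 42.5 Mb, chromosome 12 from 34.5 to 37.5 Mb and chromosome 19 from 24.4 to 27.9 Mb. They were chosen by position, because these centromeres carry alpha satellite of the first suprachromosomal family. A peak belonged to a window when its midpoint lay inside it. The windows held 6777 of the 48435 peaks that the 3 lists place on chromosomes 1 to 22 and X. These were 2112 of the 14087 peaks of PURPL guide 1, 1949 of the 11721 peaks of PURPL guide 2 and 2716 of the 22627 peaks of the control guide.

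ChIP-seq, the sequencing of DNA recovered with an antibody, was used to map the mark in the BJ line of skin fibroblasts, an established human cell line. All 3 BJ lines carried CRISPRi, which directs a transcriptional repressor to the site of a guide RNA: one with the first guide against PURPL (guide 1), one with the second (guide 2) and one with a control guide. PURPL is a p53-induced gene for a long non-coding RNA, and the level of its knockdown was not analysed here. Each line gave 1 H3K9me3 library and 1 input library, with the same formaldehyde fixation, so no difference below has a replicate check. The labels name no dose, time or separate culture, and the sequencing depth is unknown. A difference between guide and control therefore cannot be told apart from a difference between libraries, such as depth.

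H3K9me3 is the trimethylation of lysine 9 on histone H3. It marks constitutive heterochromatin, is bound by HP1 proteins and is concentrated in the repeats at and beside centromeres. Alpha satellite is a tandem repeat whose monomers are arranged in higher-order units, and many of these monomers carry the box bound by CENP-B. In hg38 the large arrays are modelled sequence and not a full assembly, and the arrays of chromosomes 1, 5 and 19 are so alike that a sequencing read often cannot be assigned to one of them. How the authors treated reads with several possible places is not given in the sources used here.

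Both guide lists held fewer peaks and a shorter length under peaks than the control list in each of the 5 windows. Over all windows, 2.19 Mb lay under guide 1 peaks, 1.86 Mb under guide 2 peaks and 3.45 Mb under control peaks, so that 63.6% of the control length was left with guide 1 and 53.8% with guide 2. Over chromosomes 1 to 22 and X, the length left was 52.4% with guide 1 and 40.3% with guide 2, so the lists were shorter throughout, and less so in the windows. The number of peaks in the windows was 77.8% of control with guide 1 and 71.8% with guide 2, against 62.3% and 51.8% over those chromosomes. The windows differed: chromosomes 10, 19 and 5 kept more of the control length than chromosomes 7 and 12. With guide 1, chromosomes 7 and 12 kept 50.2% and 42.1%, less than the 52.4% over all chromosomes. With guide 2 they kept 45.6% and 41.9%, more than the 40.3% over all chromosomes.

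On chromosome 10 the length under peaks was 317.6 kb with guide 1, 265.0 kb with guide 2 and 410.5 kb in control cells, which left 77.4% and 64.6% of the control length. Chromosome 19 had 594.9 kb with guide 1, 460.0 kb with guide 2 and 801.8 kb in control cells, with 74.2% and 57.4% left. Chromosome 5 had 642.9 kb with guide 1, 538.4 kb with guide 2 and 902.5 kb in control cells, with 71.2% and 59.7% left. In these 3 windows the guide 2 list covered less than the guide 1 list, and both covered more than 57% of the control length. Chromosome 7 had 468.9 kb with guide 1, 426.1 kb with guide 2 and 935.0 kb in control cells, so 50.2% and 45.6% was left. Chromosome 12 had 167.9 kb with guide 1, 167.1 kb with guide 2 and 398.5 kb in control cells, the lowest shares left of the 5 windows, at 42.1% and 41.9%. Chromosome 7 had the longest control coverage of the 5 windows and the third longest in either guide.

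The order of the windows depended on which peaks of a list were used. When only the 11721 highest-scoring peaks of each list were used, as many as the guide 2 list has, 74.2% of the control length of the 5 windows was left with guide 1 and 68.2% with guide 2. With guide 1, chromosomes 7 and 12 still had the lowest shares, at 69.5% and 58.0%, against 75.4% to 80.5% in the other windows. With guide 2 the order turned round, with 79.5% left on chromosome 7 and 70.5% on chromosome 12, against 62.2% to 68.8% in the other windows. The lowest score kept by this rule was 16 for guide 1, 10 for guide 2 and 21 for control. The median control score was 21 on chromosomes 7 and 12 and 50 to 56 on chromosomes 5, 10 and 19, so the rule removed control peaks unequally between the windows. The part of this in the reversal was not tested. When only peaks with a score of at least 30 were used, chromosomes 7 and 12 stayed lowest, and their shares left with guide 2 were 20.6% on chromosome 7 and 25.6% on chromosome 12, against 50.4% to 51.7% in the other windows. This rule also removed peaks unequally. On chromosomes 7 and 12 together the median score was 20 with guide 1, 19 with guide 2 and 21 in control cells, below the limit of 30. Their shares thus rest on the upper end of their scores, and the part of this was not tested.

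The number of peaks differed less than their length. Chromosome 5 held 588 guide 1 peaks, 546 guide 2 peaks and 686 control peaks. Chromosome 7 held 477, 460 and 664 peaks in the same order of lists, chromosome 10 held 287, 255 and 331, chromosome 12 held 213, 224 and 406, and chromosome 19 held 547, 464 and 629. Only on chromosome 12 did guide 2 have more peaks than guide 1.

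**Figure D1:**
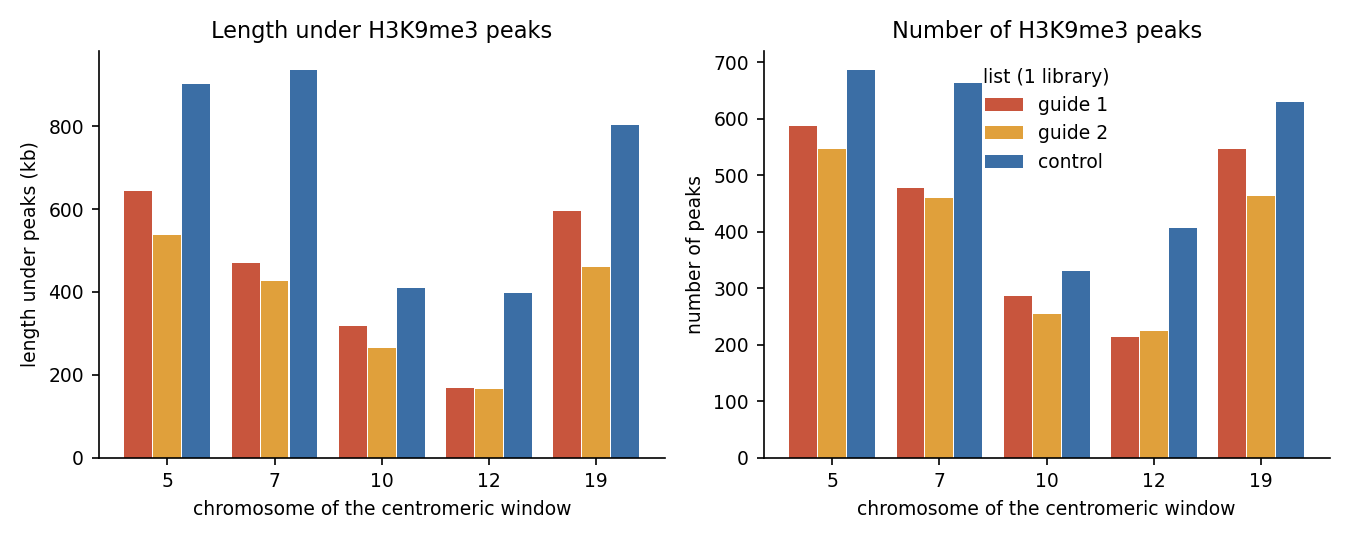
Length under H3K9me3 peaks in kb (left) and number of peaks (right) in each centromeric window, with 1 bar per list for guide 1, guide 2 and control. Both guide bars are lower than the control bar in all 5 windows, and the gap in length is widest on chromosome 7, with 468.9 kb for guide 1, 426.1 kb for guide 2 and 935.0 kb for control.

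Within each window the peaks formed a broad block, seen in 100 kb bins. Of the 181 bins of the windows, 122 held at least 10 kb under control peaks. The median bin of this kind held 17.4 kb with guide 1, 15.03 kb with guide 2 and 28.8 kb in control cells. Less than 50% of the control length was left in 31 of the 122 bins with guide 1 (25.4%) and in 47 with guide 2 (38.5%), where the same measure over 704 such bins of chromosomes 1 to 22 and X gave 35.8% with guide 1 and 52.1% with guide 2. The windows together thus held a smaller share of strongly shortened bins than all such bins taken at once.

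Most of the bins below 50% lay on chromosomes 7 and 12. With guide 1 they numbered 2 of 30 on chromosome 5, 14 of 27 on chromosome 7, 0 of 20 on chromosome 10, 15 of 21 on chromosome 12 and 0 of 24 on chromosome 19. With guide 2 the counts were 8, 19, 1, 15 and 4 in the same windows. These bins were chosen by their control coverage, so bins with little control coverage are not among them.

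**Figure D2:**
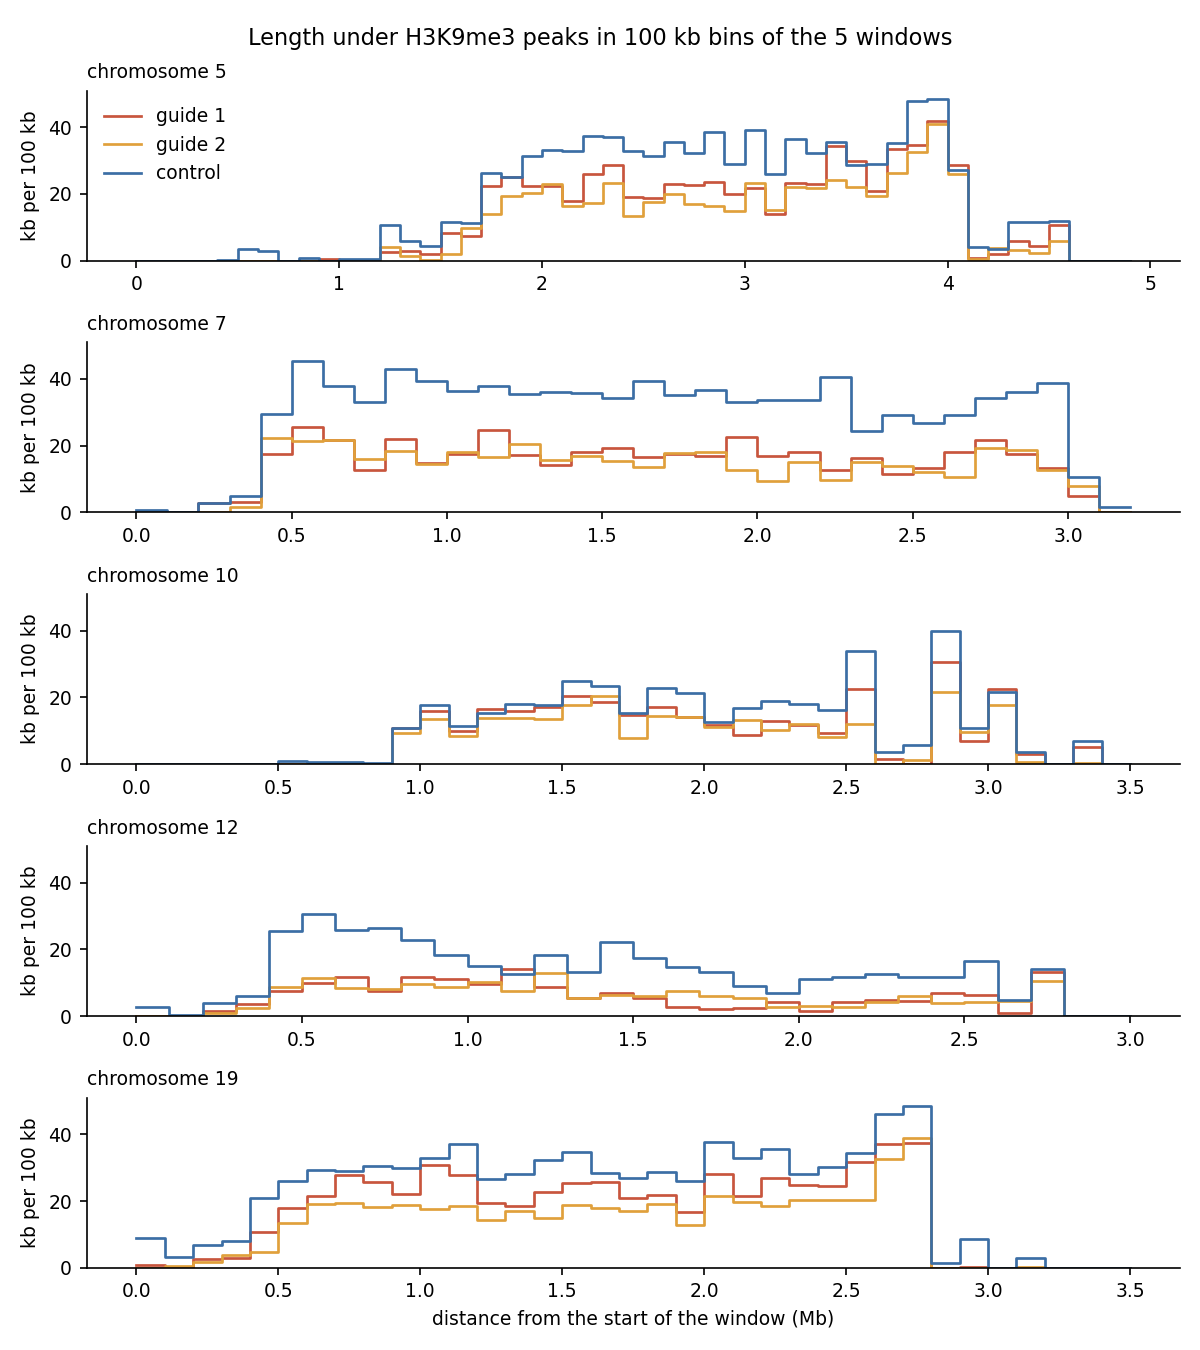
Length under H3K9me3 peaks in each 100 kb bin, in kb, against the distance from the start of the window in Mb, with 1 panel per chromosome and 1 line per list (guide 1, guide 2, control). On chromosomes 7 and 12 both guide lines run well below the control line for most of the block, with a median of 49.6% and 38.8% of the control length left with guide 1. On chromosome 10 the 3 lines lie close together for most of the block, with a median of 81.4% left with guide 1 and 74.8% with guide 2.

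The bins with the longest control coverage lay at the q-arm end of the block on chromosomes 5 and 19. On chromosome 5, the bin from 49500001 to 49600000 had 41.8 kb with guide 1, 40.9 kb with guide 2 and 48.5 kb in control cells. On chromosome 19, the bin from 27100001 to 27200000 had 37.5 kb with guide 1, 38.8 kb with guide 2 and 48.5 kb in control cells. Both kept over 77% of the control length in both guides. These bins are nearly the same place in the pattern shared by the chromosomes, described below. At the p-arm edge of the block on chromosome 19, the bin from 24800001 to 24900000 had 10.8 kb with guide 1, 4.63 kb with guide 2 and 20.9 kb in control cells. This left 51.9% with guide 1 and 22.2% with guide 2. The bin of chromosome 5 that nearly matches it, from 47200001 to 47300000, had 65.1% left with guide 1 and 86.6% with guide 2, so the low guide 2 share was not seen on both copies.

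On chromosome 7 both sides of the block had similar shares left, while single bins ranged from 31.3% to 68.9% with guide 1 and from 23.9% to 75.4% with guide 2. Its p-arm side had 50.1% of the control length left with guide 1 and 47.8% with guide 2, and its q-arm side had 50.03% and 43.7%. Its lowest bin, from 60000001 to 60100000, had 12.7 kb with guide 1, 9.69 kb with guide 2 and 40.5 kb in control cells. On chromosome 12 the control coverage was longest at the p-arm end, where the bin from 35000001 to 35100000 had 9.78 kb with guide 1, 11.4 kb with guide 2 and 30.4 kb in control cells. The lowest bin of that window for guide 1, from 36500001 to 36600000, had 1.42 kb with guide 1, 3.06 kb with guide 2 and 11.2 kb in control cells.

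Chromosome 10 differed between its sides more than chromosome 7 did. Its p-arm side had 88.5% of the control length left with guide 1 and 75.1% with guide 2, and its q-arm side had 71.6% and 61.5%. The bin from 41500001 to 41600000 had 22.5 kb with guide 1, 12.1 kb with guide 2 and 33.97 kb in control cells. The bin from 40200001 to 40300000 had 16.5 kb with guide 1, 13.9 kb with guide 2 and 15.3 kb in control cells, so that it was longer with guide 1 than in control cells.

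Peaks of the windows were narrower in the guide lists. The mean width was 1038 bp with guide 1, 953 bp with guide 2 and 1270 bp in control cells. This was 81.8% of control with guide 1 and 75.0% with guide 2, close to the 84.2% and 77.9% over chromosomes 1 to 22 and X. Peaks of at least 2 kb numbered 260 with guide 1, 202 with guide 2 and 527 in control cells, and those of at least 5 kb numbered 10, 7 and 42 in the same lists. Over those chromosomes the counts were 2225, 1638 and 4264 for 2 kb and 310, 178 and 936 for 5 kb. The narrowing was thus not particular to the windows. Of the 5 windows chromosome 7 differed most, with a mean of 983 bp for guide 1, 926 bp for guide 2 and 1408 bp for control. It had 0, 0 and 14 peaks of at least 5 kb.

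The widths could also be set side by side for the same places. Where 1 guide peak overlapped 1 control peak and neither overlapped another, the guide width was taken as a share of the control width. The median of these shares was 92.9% over 1473 pairs with guide 1 and 84.8% over 1317 pairs with guide 2. The median widths themselves were 900 bp against 1146 bp in control with guide 1, and 802 bp against 1196 bp with guide 2. Summed over the pairs, the guide length was 79.5% of the control length with guide 1 and 68.4% with guide 2. The guide peak was the narrower of the pair in 66.3% of the pairs with guide 1 and 70.8% with guide 2. On chromosomes 5, 10 and 19 the median shares were 95.4%, 94.4% and 95.6% with guide 1 and 90.9%, 91.6% and 88.7% with guide 2. Their summed lengths were lower, at 82.9%, 85.9% and 87.2% of control with guide 1 and 73.7%, 74.0% and 73.0% with guide 2. On chromosome 7 the medians were 71.9% with guide 1 and 56.1% with guide 2, and on chromosome 12 they were 78.8% and 73.7%. In these 2 windows the peaks present in both lists were thus also the more strongly narrowed.

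The windows fell into the same groups by the score of their peaks. The authors gave each peak a score, whose scale is not stated, and it serves here to rank peaks within a list, except for the alternative that sets 1 limit for all 3 lists. The score percentile of a peak is its place among all peaks of its own list on chromosomes 1 to 22 and X. With guide 1, the median percentile was 85.3 on chromosome 5, 86.2 on chromosome 10 and 85.3 on chromosome 19, but 39.9 on chromosome 7 and 44.2 on chromosome 12. With guide 2, it was 81.5, 85.3 and 83.9 on chromosomes 5, 10 and 19, but 33.9 and 38.8 on chromosomes 7 and 12. In control cells, it was 88.8, 90.6 and 89.1 on chromosomes 5, 10 and 19, but 49.5 on both chromosome 7 and chromosome 12. In each list, then, the windows of chromosomes 5, 10 and 19 held mainly peaks from the upper end of the list, and those of chromosomes 7 and 12 did not.

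Counted at the top of each list, the windows held 559 of the 1398 highest-scoring peaks of guide 1, 465 of the 1180 of guide 2 and 829 of the 2231 of control, taking the peaks above the 90th percentile. These were 39.99%, 39.4% and 37.2% of such peaks, where the windows held 14.99%, 16.6% and 12.0% of all peaks of the same lists. Chromosomes 7 and 12 together supplied 18 of them in guide 1, 13 in guide 2 and 30 in control cells. Most came from chromosomes 5 and 19, with 224 and 211 in guide 1, 190 and 172 in guide 2 and 325 and 303 in control cells. These 2 windows hold copies of 1 pattern, described below, and may hold the same reads, so this pattern is counted on both. The division into chromosomes 5, 10 and 19 and chromosomes 7 and 12 was made after these values were seen.

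**Figure D3:**
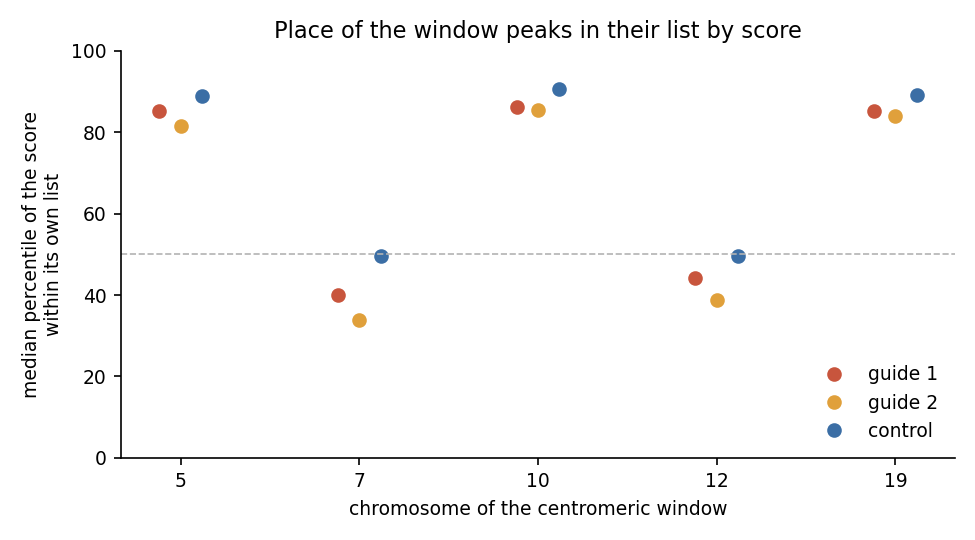
Median score percentile of the window peaks within their own list (vertical axis, 0 to 100) for each chromosome, with 1 point per list for guide 1, guide 2 and control. The dashed line is the middle of a list. The points of chromosomes 5, 10 and 19 lie between 81.5 and 90.6, and those of chromosomes 7 and 12 lie between 33.9 and 49.5.

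Peaks were then matched between lists, counting an overlap of at least 1 bp. A guide 1 peak overlapped 1706 of the 2716 control peaks of the windows, or 62.8% (95% Wilson interval 60.98 to 64.6), where 42.8% of the control peaks of chromosomes 1 to 22 and X did. A guide 2 peak overlapped 1534 of them, or 56.5% (54.6 to 58.3), where the share over those chromosomes was 36.2%. These intervals cover counting error only, and neighbouring peaks of 1 library are not replicates. Both shares were higher in the windows than over all chromosomes. Peaks of any list covered 24.4% of the windows, and an overlap of 1 bp is met more easily where peaks lie densely. The part of this density in the shares was not tested.

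By window, control peaks overlapped a guide 1 peak in 71.6% of cases on chromosome 5, 53.9% on chromosome 7, 74.9% on chromosome 10, 36.9% on chromosome 12 and 73.0% on chromosome 19. With guide 2 the shares were 64.9%, 50%, 69.2%, 33.0% and 62.6%. Chromosome 12 was below the share of all chromosomes in both guides, and the other windows were above it.

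Read in the other direction, 85.2% of the guide 1 peaks of the windows overlapped a control peak, against 79.2% over chromosomes 1 to 22 and X. For guide 2 peaks the share was 83.1%, close to the 82.9% over those chromosomes. It was lowest on chromosome 12, at 71.4% for guide 1 and 60.3% for guide 2, and reached 90.3% for guide 1 on chromosome 19 and 93.7% for guide 2 on chromosome 10. Most guide peaks of the windows thus lay on control peaks, and chromosome 12 had the largest share that did not.

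The guide lists were also set against each other. In the windows 63.9% of guide 1 peaks met a guide 2 peak, where the share over chromosomes 1 to 22 and X was 55%. Conversely 70.2% of guide 2 peaks met a guide 1 peak, where that share was 68.6%. On chromosome 10 the shares were 77.0% and 88.6%, and on chromosome 12 they were 36.2% and 34.8%. The guides thus placed most peaks together on chromosome 10 and only a minority together on chromosome 12.

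Of the 2716 control peaks, 727 overlapped no peak of either guide, or 26.8%, where 50.1% of the control peaks of chromosomes 1 to 22 and X overlapped none. The share was 21.1% on chromosome 5, 29.2% on chromosome 7, 19.3% on chromosome 10, 48.8% on chromosome 12 and 20.0% on chromosome 19. These control peaks were short, with a median of 515 bp, and held 14.9% of the control length, whereas the 1251 control peaks that overlapped both guides had a median of 1346 bp and held 60.9%.

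Counted in bases, 955 kb of the windows lay under peaks of all 3 lists and 1449 kb under control peaks alone, which were 27.7% and 42.0% of the control length. The share under all 3 lists was 46.6% on chromosome 10, 38.0% on chromosome 5 and 37.1% on chromosome 19, but 9.35% on chromosome 7 and 9.03% on chromosome 12. On chromosome 7 peaks of any list covered 40.3% of the window, the widest spread of the 5. There, 53.9% of the control peaks met a guide 1 peak, as given above, yet little of the control length was common to all lists.

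The share of control peaks met by a guide peak was larger at higher control scores. When the control peaks of the windows were cut into 4 equal parts by score, a guide 1 peak overlapped 35.8% of the lowest part, 52.0% and 72.3% of the middle parts and 91.2% of the highest. With guide 2 the shares were 30.3%, 48.6%, 60.2% and 86.7%. The score thus ordered the control peaks in the same way for both guides.

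Within each score class, the difference between the pooled groups of windows was smaller than over all scores, and its direction was not the same in every class. Among control peaks with a score of 10 to 19, guide 1 peaks overlapped 28.96% on chromosomes 5, 10 and 19 (22.9 to 35.9) and 37.6% on chromosomes 7 and 12 (33.2 to 42.3). For scores of 20 to 29 the shares were 52.7% and 47.8%, and for 30 to 59 they were 72.7% (68.8 to 76.4) and 64.4% (57.2 to 71.1). For scores of 60 or more they were 89.5% of 726 peaks and 92.3% of 26 peaks. With guide 2 the shares were 18.6% and 34.01% for scores of 10 to 19, 44.4% and 49.2% for 20 to 29, 60.9% and 48.3% for 30 to 59, and 85.3% and 80.8% for 60 or more. Over all scores they were 72.8% and 47.5% with guide 1 and 64.9% and 43.6% with guide 2, and the part of the score in these gaps was not tested. Chromosomes 7 and 12 were not alike within the classes. From the lowest class to the highest, the guide 1 shares were 44.4%, 54.0%, 70.8% and 100% on chromosome 7. On chromosome 12 they were 26.9%, 36.4%, 55.4% and 80%, below the pooled shares of chromosomes 5, 10 and 19 in every class. In the lowest class, however, chromosomes 5 and 10 by themselves had 26.25% and 20.7%. The guide 2 shares were 39.3%, 57.0%, 54.7% and 81.25% on chromosome 7, and 25.7%, 35.1%, 39.2% and 80% on chromosome 12. With guide 2, chromosome 12 was above the pooled share of chromosomes 5, 10 and 19 in the lowest class and below it in the others. The highest class held only 16 control peaks on chromosome 7 and 10 on chromosome 12. The score classes were chosen after the values were seen.

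**Figure D4:**
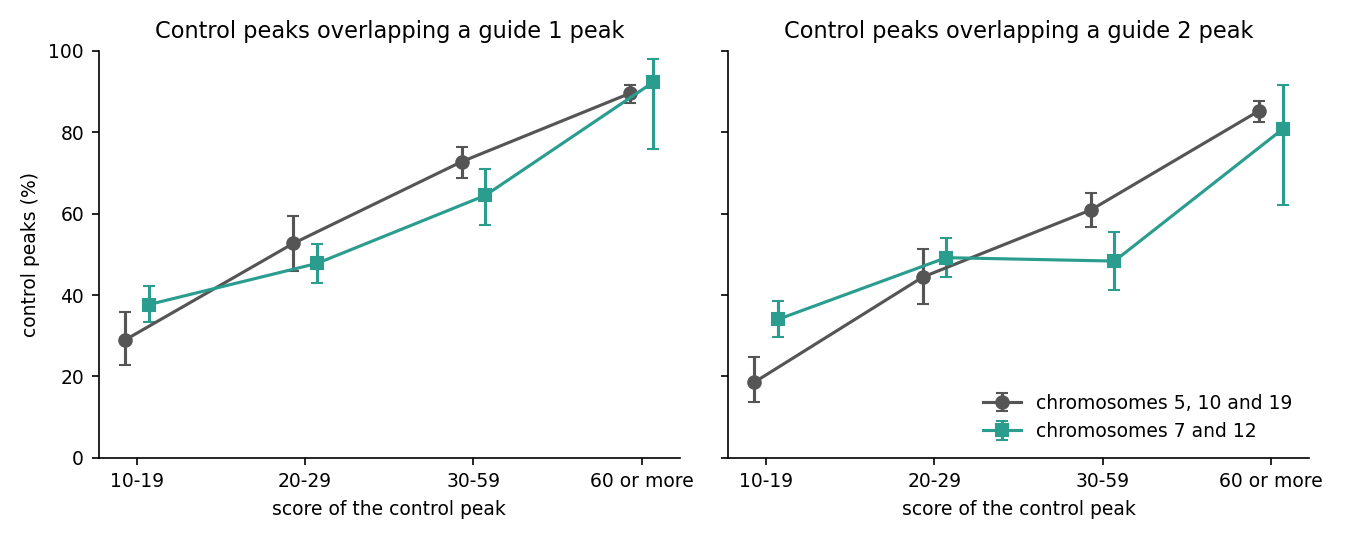
Share of control peaks that overlap a guide 1 peak (left) or a guide 2 peak (right), in percent, by the score of the control peak, for chromosomes 5, 10 and 19 (circles) and chromosomes 7 and 12 (squares). Bars are 95% Wilson intervals and cover only counting error. The share is larger in each higher score class, except on chromosomes 7 and 12 with guide 2, where it is 49.2% for scores of 20 to 29 and 48.3% for 30 to 59. For scores of 10 to 19 it is larger on chromosomes 7 and 12, at 37.6% against 28.96% with guide 1.

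The peaks of chromosomes 5 and 19 lay in the same pattern. When one window was laid on the other at every offset, 1 offset stood out in all 3 lists, with the same orientation: a position on chromosome 19 plus 22400495 bp gives its counterpart on chromosome 5. At that place, to the nearest 10 bp of the scan, 404.5 kb were shared between the windows with guide 1, 309.8 kb with guide 2 and 587.1 kb in control cells. At the best offset over 5 kb away, the shared length was 174.1 kb with guide 1, 117.0 kb with guide 2 and 289.0 kb in control cells. For the other pairs of windows, in either orientation, the best offset shared at most 1.14 times the length of the next, against 2.03 to 2.65 times for chromosomes 5 and 19. Chromosomes 5 and 19 are therefore not separate observations of the guides, and they are compared here as copies of 1 pattern. This was seen in the data and not planned.

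The segment of chromosome 19 from 24800001 to 27200000, 2.4 Mb long, was matched with the segment of chromosome 5 from 47200496 to 49600495. In the guide 1 list, the chromosome 19 copy held 536 peaks and 588.1 kb, and the chromosome 5 copy held 531 peaks and 574.5 kb. In the guide 2 list, the copies held 456 peaks and 453.8 kb on chromosome 19 and 497 peaks and 488.7 kb on chromosome 5. In control cells, they held 576 peaks and 761.7 kb on chromosome 19 and 580 peaks and 791.4 kb on chromosome 5. Within a list, the chromosome 19 length was thus 102%, 92.8% and 96.2% of the chromosome 5 length for guide 1, guide 2 and control. Relative to control, 77.2% of the control length was left with guide 1 on chromosome 19 and 72.6% on chromosome 5, and 59.6% and 61.8% with guide 2.

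The same list often had a peak at the matching place of the other copy. Of the peaks of the chromosome 5 segment, 81.9% with guide 1 (78.4 to 85.0), 76.1% with guide 2 (72.1 to 79.6) and 86.7% in control cells (83.7 to 89.2) overlapped a peak of the same list on chromosome 19. Of those of the chromosome 19 segment, 81.5% with guide 1, 82.9% with guide 2 and 87.5% in control cells overlapped one on chromosome 5. The copies of 1 library are not replicates and may hold the same reads. Peak edges agreed closely: in control cells, where 1 peak met 1 peak of the other copy (427 pairs), the starts differed by a median of 31 bp and the ends by 28 bp. Whether reads of 1 place were divided between these copies was not tested.

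**Figure D5:**
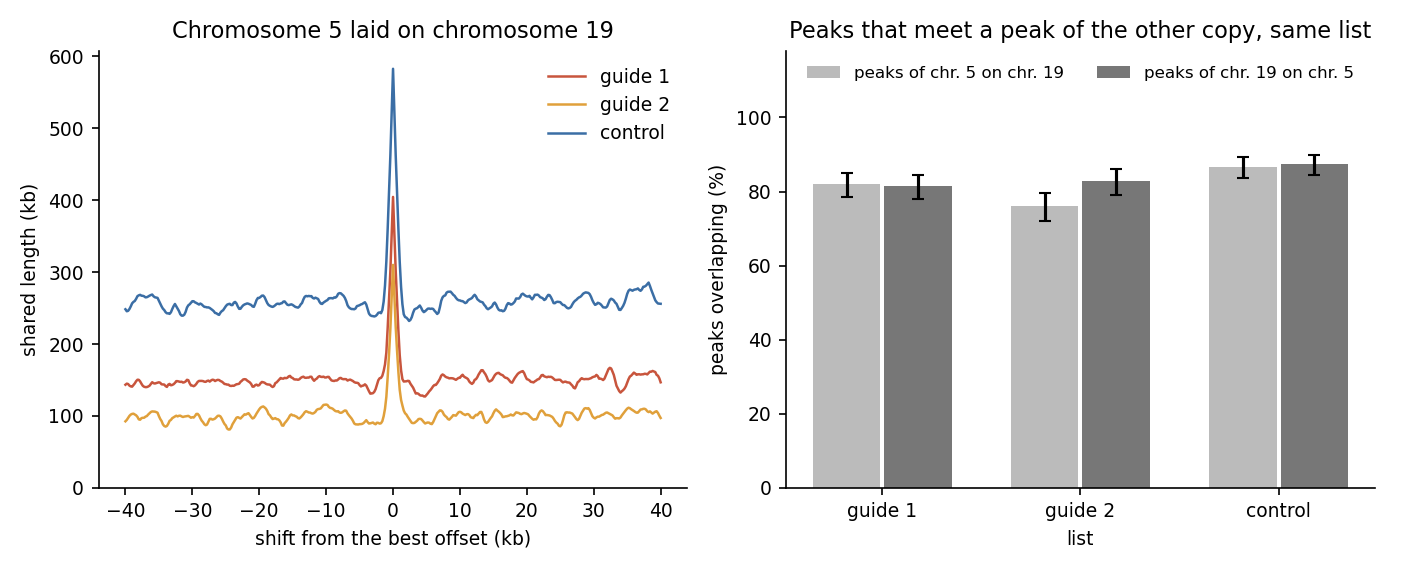
Left, length in kb shared by the peaks of chromosomes 5 and 19 when 1 pattern is moved over the other, against the shift from the best offset in kb, for guide 1, guide 2 and control. Each list has 1 sharp maximum at the same place. Right, share in percent of the peaks of each matched 2.4 Mb segment that overlap a peak of the same list on the other chromosome, for guide 1, guide 2 and control, with 95% Wilson intervals. For the peaks of chromosome 5 it is 81.9%, 76.1% and 86.7%.

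Single peaks were named by rule, as the highest-scoring and the widest peak of each list in each window and the highest-scoring control peak with no guide peak. None of those of the windows lay in an annotated gene. The widest peak of all was on chromosome 10, close to the q-arm edge of the block. It ran from 42068708 to 42084174 with guide 1 (15467 bp), from 42072771 to 42084031 with guide 2 (11261 bp) and from 42066303 to 42084207 in control cells (17905 bp). The 3 peaks ended within 200 bp of each other and differed mainly at the p-arm end, and further guide peaks filled part of the remainder, so that 16900 bp of the control peak lay under guide 1 peaks and 15524 bp under guide 2 peaks.

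On chromosome 12 a single peak was the highest-scoring of the window in every list. It ran from 37245851 to 37250249 with guide 1, from 37245844 to 37250180 with guide 2 and from 37245856 to 37250263 in control cells, which made it 4399, 4337 and 4408 bp wide. Its place and width were almost alike in the lists, in the window where the least of the control length was left. The widest control peak of that window, from 34905264 to 34911274 (6011 bp), had 2066 bp under guide 1 peaks and 0 bp under guide 2 peaks.

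Chromosome 7 also had the same highest-scoring peak in every list, from 58818462 to 58818836 with guide 1, 58818492 to 58818836 with guide 2 and 58818448 to 58818894 in control cells. Its widest control peak, from 58580621 to 58589800 (9180 bp), lay at a score percentile of 52.9 and was met by 4 guide 1 peaks and 2 guide 2 peaks that covered 1573 bp and 1217 bp of it. On chromosome 10 the highest-scoring peak was likewise the same in each list, from 40980913 to 40981456 with guide 1, 40980926 to 40981441 with guide 2 and 40980883 to 40981469 in control cells. On these chromosomes the highest-scoring peaks had nearly the same place in each list. The widest peaks of chromosome 7 did not, whichever list they were taken from: the widest guide 2 peak, from 59461104 to 59465836 (4733 bp), had 225 bp under guide 1 peaks and 1577 bp under control peaks. The widest guide 1 peak, from 59751561 to 59756154 (4594 bp), had 0 bp under guide 2 peaks and 3233 bp under control peaks.

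On chromosomes 5 and 19 several of the named peaks had a counterpart among the named peaks of the other copy. The highest-scoring guide 1 peak of chromosome 5, from 49630760 to 49633756, lay past the end of the matched segment at 49600495. No list had a peak at the same offset on chromosome 19, but this place lies outside the matched copies. The widest peak of chromosome 19 ran from 27134678 to 27143548 with guide 1 (8871 bp), 27134697 to 27142847 with guide 2 (8151 bp) and 27134688 to 27143552 in control cells (8865 bp). At its counterpart on chromosome 5 lay the widest guide 1 peak of that window, from 49535193 to 49543339 (8147 bp), and the widest control peak, from 49535178 to 49544047 (8870 bp), while guide 2 had 2 peaks there with 7828 bp. The highest-scoring guide 1 and guide 2 peaks of chromosome 19, at 27078463 to 27078852 and 27078469 to 27078840, likewise corresponded to the highest-scoring guide 2 peak of chromosome 5, at 49478934 to 49479350.

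The counterparts also bear on control peaks with no guide peak. The highest-scoring of them on chromosome 5, from 48498076 to 48498401, had a guide 1 peak of 248 bp and a control peak of 314 bp at its counterpart on chromosome 19, and no guide 2 peak. The highest-scoring of them on chromosome 19, from 26443733 to 26444002, had a control peak of 260 bp at its counterpart on chromosome 5 and no peak of either guide there. The first place was thus without a guide 1 peak on 1 copy only, and the second was without a peak of either guide on both copies.

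Of the 2112 guide 1 peaks of the windows, 67 lay on no control peak and overlapped a guide 2 peak that lay on none either. This was 3.17% of them, close to the 2.62% of the guide 1 peaks of chromosomes 1 to 22 and X. They numbered 13 on chromosome 5, 25 on chromosome 7, 4 on chromosome 10, 9 on chromosome 12 and 16 on chromosome 19. In bases, guide 1 and guide 2 shared 45.5 kb without control on chromosome 7, against 527.7 kb under control peaks alone.

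The windows hold few genes. EMB, which encodes the cell-surface glycoprotein embigin, lies towards the q-arm end of the chromosome 5 window and had 0 bp under peaks in all 3 lists. Of 21 annotated genes in the windows, 2 had a window peak. The transcribed pseudogene LOC441666 on chromosome 10 (42331866 to 42368045) had 1275 bp with guide 1, 0 bp with guide 2 and 3579 bp in control cells, and the pseudogene KSR1P1 had 2 bp with guide 1 alone. Only 11 promoters were listed for the windows, with 0 on chromosomes 5 and 12, and none of them held a peak. The share over all chromosomes is not given here, so this does not set the windows apart.

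Outside the windows, the nearest protein-coding genes with the most control coverage were zinc finger genes of the KRAB type. ZNF254, on the p-arm side of the chromosome 19 window, had 8392 bp with guide 1, 1757 bp with guide 2 and 12230 bp in control cells. ZNF37A, on the p-arm side of the chromosome 10 window, had 2741 bp with guide 1, 1443 bp with guide 2 and 11454 bp in control cells. ZNF33B, on its q-arm side, had 1113 bp with guide 1, 0 bp with guide 2 and 3431 bp in control cells. Within 0.5 Mb outside the windows, 19 guide 1 peaks, 10 guide 2 peaks and 84 control peaks were found, most of the control peaks on the p-arm side of chromosome 19.

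The rest of the same 5 chromosomes stood apart from the windows. It held 1452 guide 1 peaks, 804 guide 2 peaks and 3201 control peaks, with 38.6% of the control length left with guide 1 and 14.9% with guide 2. There a guide 1 peak overlapped 22.8% of the control peaks and a guide 2 peak 12.1%, against 62.8% and 56.5% in the windows and 65.9% and 62.1% in the longest gene-free stretch of 15 other chromosomes. In those stretches 89.2% of the peaks of each guide met a control peak, against 85.2% for guide 1 and 83.1% for guide 2 in the windows. Of their guide 1 peaks, 71.1% met a guide 2 peak, against 63.9% in the windows. Of their guide 2 peaks, 75.3% met a guide 1 peak, against 70.2% in the windows. The overlap in the windows was thus not higher than in those stretches. In length, too, these stretches were close to the windows, with 63.3% of the control length left with guide 1 and 56.3% with guide 2. Among these 20 regions, the share left with guide 1 ranked from the highest as number 4 on chromosome 10, 6 on chromosome 19, 7 on chromosome 5, 16 on chromosome 7 and 18 on chromosome 12. By the median score percentile in control cells, chromosomes 10, 19 and 5 ranked as numbers 1, 2 and 3, and chromosomes 7 and 12 shared number 18. The stretch of chromosome 1, which shares the pattern of chromosomes 5 and 19, was close behind, with a median percentile of 88.1 in control cells against 88.8 on chromosome 5, and it held 17.2% of the guide 1 peaks above the 90th percentile by itself. The windows were thus not alike, and none of them had the highest or the lowest share left of the 20 regions.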

How the data were processed

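Each H3K9me3 library has 1 deposited peak list. Per the submitters' processing notes, the builds were hg38 and GRCh38.p13, and MACS2 2.2.9.1, deepTools 3.5.1, Bowtie2 2.4.2 and GATK were used. How peaks were called is not given in the sources used here. In the deposited lists the authors' score is a whole number, 10 or higher. The guide names within peak names differ from those of the labels, and lists were assigned by sample title. Input libraries were not analysed here. Depth is unknown and uncorrected.

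Lengths are bases under peaks, clipped to bins or segments where these are used. Shares carry 95% Wilson intervals. Genes came from a RefSeq table for GRCh38.p14. The values of 1 gene are not reported here. No genome or repeat annotation was used, so the satellite content of the windows was not checked and no sequence is printed. The longest gene-free stretches of 18 other chromosomes served for comparison. The 3 with under 100 control peaks were left out after the data were seen. Per window, the named peaks were the highest-scoring and the widest of each list and the highest-scoring control peak without a guide peak, and the named bins those with the longest control coverage and the lowest and highest share left. The windows, lists and rules were chosen with earlier results of these data known. Bins, pairs and copies described beyond these were chosen after the values were seen. With 1 library per group no test was made. Python 3.11.15 was used with pandas 2.3.3, numpy 2.4.6, matplotlib 3.10.9 and scipy 1.17.1, and the calculations were checked on simulated lists.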

Additional observations from a re-analysis of the deposited data

How the results depend on the processing

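No paired analysis was possible because each group has 1 library. The length and number of peaks in the windows were recomputed with a score filter, merged peaks, equal list lengths, shortened windows and, for length, clipped peaks. Their overlaps over the 5 windows were recomputed with another overlap rule, the score filter and equal list lengths. Both were repeated without the window of chromosome 19, chosen after seeing the data. Bins, paired widths, scores and copies were not recomputed. Clipping left every percentage as it was, so its values, which are counted here, add no check. Of 72 percentages of control, 70 stayed below the control. The exceptions are the numbers of peaks after merging within 5000 bp, at 117% for guide 1 and 128% for guide 2.

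With the 11721 highest-scoring peaks of each list, the windows held 1885 guide 1 peaks, 1949 guide 2 peaks and 1986 control peaks, so their numbers nearly met. The length left with guide 2 was then 79.5% on chromosome 7 and 70.5% on chromosome 12, with lowest kept scores of 10 for guide 2 and 21 for control. Control peaks overlapped guide 1 in 67.8% and guide 2 in 65.5%, guide 1 peaks overlapped control in 75.9% and guide 2 peaks in 71.5%. Among peaks with a score of at least 30, the length left with guide 2 was 20.6% on chromosome 7 and 25.6% on chromosome 12. Control peaks then overlapped guide 1 in 60.2% and guide 2 in 52.8%, and guide 2 peaks overlapped control in 86.9%. With 50% of a peak to be covered, the shares were 43.4% of control peaks for guide 1 and 35.7% for guide 2, and 71.9% of guide 1 and 71.1% of guide 2 peaks for control. Without chromosome 19, 59.8% of control peaks overlapped guide 1, and 83.5% of guide 1 and 80.5% of guide 2 peaks overlapped control. The cause of these differences was not tested. Unknown depth limits every comparison between lists.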

Other observations

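The long gene-free stretch of chromosome 1 that includes its centromere showed the same pattern as the windows of chromosomes 5 and 19. Laid on chromosome 19, its peaks shared 423.0 kb with guide 1, 305.9 kb with guide 2 and 605.5 kb in control cells at the best offset, against 171.8 kb, 112.6 kb and 282.9 kb at the best offset over 5 kb away. Laid on chromosome 5, they shared 420.2 kb with guide 1, 323.2 kb with guide 2 and 610.1 kb in control cells, against 178.8 kb, 125.1 kb and 312.8 kb. With chromosomes 7, 10 and 12 no offset stood out in this way. In that stretch, 75.5% of the control length was left with guide 1 and 60.1% with guide 2, close to the values of chromosomes 5 and 19.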
